A study of Mus musculus with 16 samples.

Results

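The intercalated disc is the specialised contact between neighbouring heart muscle cells, and 10 genes that build it were followed through a mouse model of pressure overload and its treatment with THZ1. They were 3 connexins of the gap junction (Gja1, Gja5 and Gjc1), the cadherin and an α-catenin of the adherens junction (Cdh2 and Ctnna3) and 5 components of the desmosome (Dsg2, Dsc2, Dsp, Pkp2 and Jup). The members were chosen by symbol, all 10 were found among the 22372 genes of the deposited table, and all 10 passed the filter on low values. The RNA was that of ventricle tissue from C57BL/6J mice, which were 10 to 12 weeks old when the experiment began, with 4 mice in each of 4 groups. In the TAC groups a suture constricted the transverse aorta (TAC, transverse aortic constriction), which puts the left ventricle under pressure overload, while the sham groups had the same thoracotomy without the suture. THZ1 binds covalently to CDK7, CDK12 and CDK13, kinases that act on transcription by RNA polymerase II, and blocks them. Mice received it by intraperitoneal injection in doses of 10 mg/kg, given 2 times daily, with treatment beginning on day 1 and ending on day 60, counted from surgery, and the vehicle groups were injected with vehicle. The study's methods differ from this record, with daily injections of a higher dose and a narrower age range. The sham groups are called Sham-Veh and Sham-THZ1, and the constricted groups TAC-Veh and TAC-THZ1. The mice carried no engineered allele according to the sources used here, the study's methods describe them as male, and each library mixed all cell types of the tissue piece, so less RNA per cell and fewer cells of a type cannot be told apart.

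As background, gap junction channels of connexin proteins carry the electrical impulse from cell to cell, and connexin 43, the product of Gja1, is the main connexin of working ventricular muscle. N-cadherin (Cdh2) joins the cells mechanically and is tied to actin through catenins, whereas desmosomes tie the intermediate filaments of neighbouring cells together through the cadherins desmoglein 2 (Dsg2) and desmocollin 2 (Dsc2) and the plaque proteins plakoglobin (Jup), plakophilin 2 (Pkp2) and desmoplakin (Dsp). Mutations in the desmosomal genes cause arrhythmogenic cardiomyopathy, and connexin 43 is known to be remodelled in failing hearts.

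Values are normalized counts, which are reads per gene divided by a size factor for the library. Whole reads could be recovered and checked for 14 of the 16 libraries and came to 21.4 to 35.8 M reads per library, of which mitochondrial genes took 33.2% to 44.7%. The typical gene lay farther from its group mean in TAC-Veh replicate 1 than in any other library, with a median absolute deviation of 0.184 on the log2 scale against 0.124 to 0.143 in the other TAC-Veh libraries and 0.0559 to 0.0711 in the sham libraries, so results that rest on it are given with and without it. Each of 12 cardiomyocyte markers was present in every group. Of 8 atrial markers 4 passed the filter on low values, and the list summed to 1648 to 1976 normalized counts per library in Sham-Veh and 1635 to 1909 in Sham-THZ1, beside 772 to 1205 after TAC with vehicle and 1088 to 1728 in TAC-THZ1, and the part of this spread in the results was not tested. Most of that sum came from Tbx5, Kcna5 and Stard10, whereas Myl7, Sln and Bmp10 reached at most 6.44, 4.05 and 0.864 normalized counts in any library, examples chosen after their values were seen. Differences were tested with limma on log2(normalized count + 1), fold changes are on that scale, and a gene was called at an adjusted p under 0.05 over the 13331 genes tested.

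Levels of different genes were compared per kilobase of annotated exon. In Sham-Veh hearts Gja1 stood highest, at 4279 ± 320.5 normalized counts per kilobase (SD, n = 4), followed by Dsp at 2656 ± 151. Jup (817 ± 62.0 per kilobase) and Cdh2 (815 ± 59.7) came next and their ranges overlapped, and below them stood Pkp2 at 651 ± 46.7 per kilobase. The desmosomal cadherins were lower than every plaque gene, with 353 ± 44.1 per kilobase for Dsg2 and 273 ± 22.3 for Dsc2. The lowest levels were those of Gjc1 (117 ± 3.41 per kilobase), Ctnna3 (55.3 ± 3.68) and Gja5 (23.5 ± 2.54). Neighbours in this order other than Jup and Cdh2 did not overlap between mice. After TAC the order changed in its middle. In TAC-Veh, Pkp2 (795 ± 71.8 per kilobase) stood above Jup (714 ± 117) and Cdh2 (577 ± 66.5), with overlapping ranges from each to the next, and Dsg2 (143 ± 25.1 per kilobase), Dsc2 (141 ± 13.01) and Gjc1 (133 ± 12.2) could no longer be ordered. Gja1 and Dsp overlapped in TAC-Veh as well, at 3053 ± 1154 and 2324 ± 264 per kilobase. In TAC-THZ1 the desmosomal cadherins again lay above Gjc1, at 206 ± 37.7 per kilobase for Dsg2 and 190 ± 16.9 for Dsc2 against 116 ± 5.53.

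**Figure D1:**
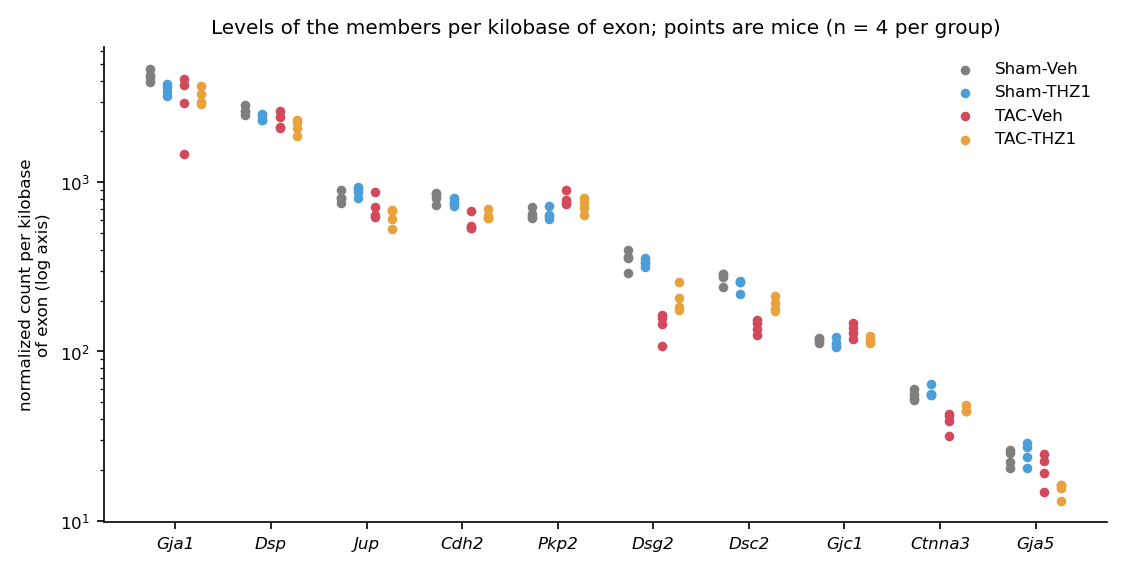
Normalized counts per kilobase of exon (log axis) of the 10 members, ordered by their mean in Sham-Veh, with 1 point per mouse and 1 colour per group. The span runs from 4279 per kilobase for Gja1 to 23.5 for Gja5 in Sham-Veh, and Dsg2 and Dsc2 come down to the level of Gjc1 in TAC-Veh.

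How pressure overload changed the junction genes is read from TAC-Veh against Sham-Veh. Of the 10 members, 5 were called lower (Dsg2, Dsc2, Ctnna3, Cdh2 and Gja1) and 2 higher (Pkp2 and Gjc1), beside 23.6% and 21.4% of all genes tested. The median log2 fold change of the members was -0.37, beside -0.003 over all genes, and without TAC-Veh replicate 1 it was -0.21. The values of TAC-Veh and Sham-Veh did not overlap for 4 members that were lower (Dsg2, Dsc2, Cdh2 and Ctnna3) and 1 that was higher (Pkp2), whereas 19.1% of all genes had TAC-Veh values wholly below and 18.2% wholly above those of Sham-Veh. The 4 members without overlap on the lower side were the 3 cadherins and Ctnna3.

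Dsg2 fell most. It encodes desmoglein 2, a transmembrane adhesion protein of the desmosome, on chromosome 18 (20716575 to 20763022, plus strand, NCBIM37, the build also named mm9). It measured 2412, 3281, 2963 and 3011 normalized counts in the 4 Sham-Veh mice and 1199, 889, 1353 and 1300 in the TAC-Veh mice. With THZ1, the values were 2601, 2948, 2753 and 2811 in sham and 1511, 2139, 1450 and 1718 after TAC. Every TAC-Veh mouse lay below every sham mouse, and every TAC-THZ1 mouse lay between the TAC-Veh and the sham mice, with no overlap on either side. The log2 fold change of Dsg2 in TAC-Veh against Sham-Veh was -1.31 (SE 0.133, limma adjusted p 2.06e-06), which is a level of 0.404 times that of sham. It was the 1 member called with TAC that also changed by at least 1 on the log2 scale.

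Dsc2 encodes desmocollin 2, the partner of desmoglein in the desmosome, and lies near Dsg2 on chromosome 18 (20189134 to 20218055, minus strand). Its values were 1272, 1522, 1520 and 1454 normalized counts in Sham-Veh and 716, 661, 781 and 815 in TAC-Veh. They were 1151, 1353, 1377 and 1350 in Sham-THZ1 and 920, 1116, 944 and 1026 in TAC-THZ1. The groups were ordered as for Dsg2, with TAC-THZ1 above TAC-Veh and below both sham groups in every mouse. The TAC effect was a log2 fold change of -0.96 (SE 0.0866, limma adjusted p 6.94e-07). The fall of Dsg2 and of Dsc2 with TAC was called under each of the 29 other settings, with log2 fold changes from -1.40 to -1.18 for Dsg2 and from -1.02 to -0.90 for Dsc2.

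**Figure D2:**
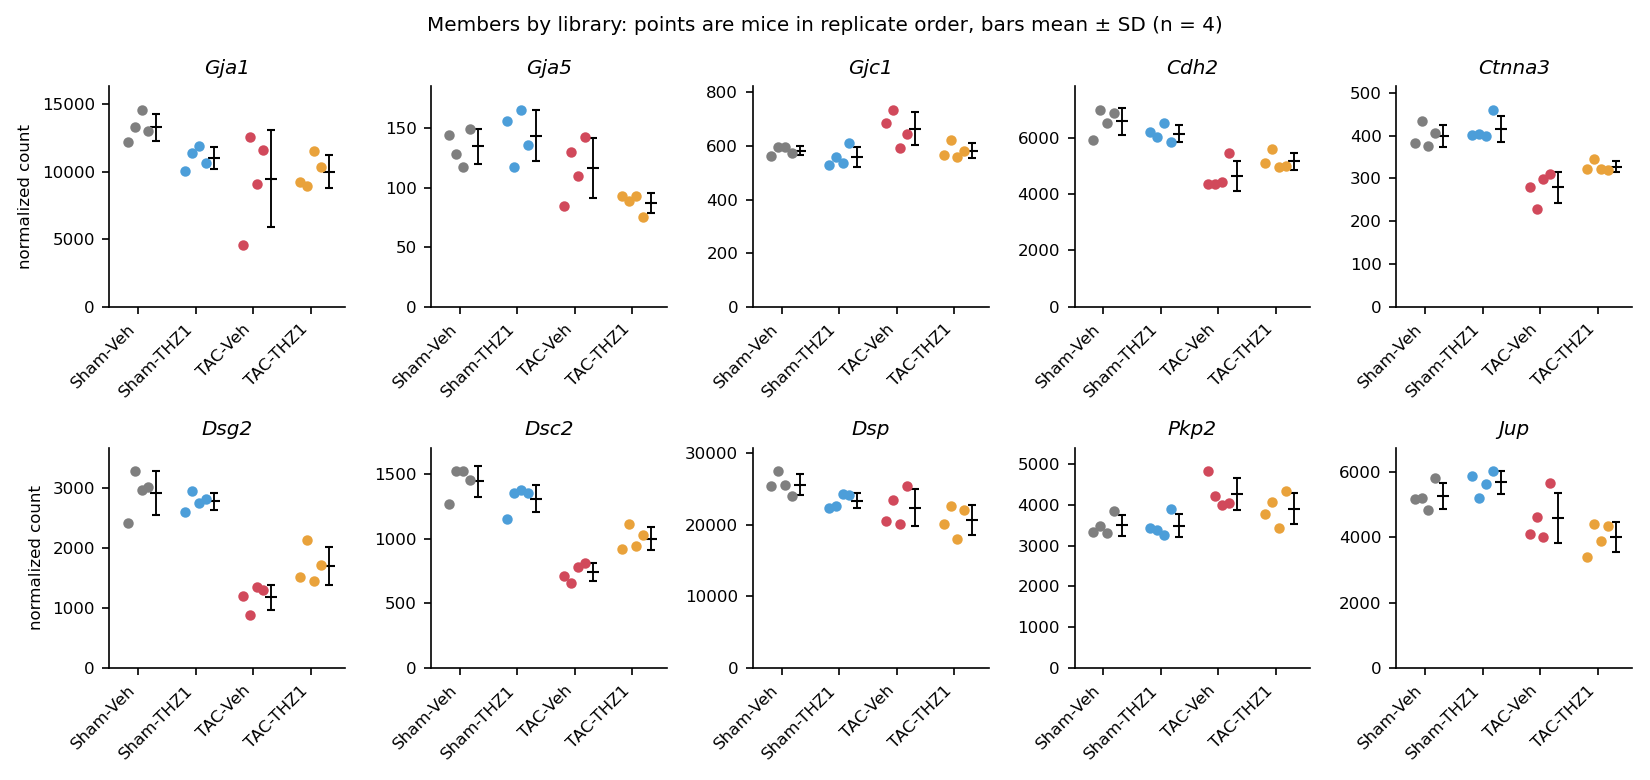
Normalized counts of the 10 members in each of the 16 libraries (points, in replicate order within a group), with the mean ± SD of 4 mice per group as bars and each vertical axis starting at 0. The TAC-Veh points of Dsg2 and Dsc2 lie below all others, and 1 TAC-Veh mouse has the lowest Gja1 value, 4576.

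The plaque genes of the desmosome moved little or in the other direction. Pkp2, which encodes plakophilin 2, the plaque protein that also takes part in recruiting desmoplakin (chromosome 16, 16213411 to 16272805, plus strand), measured 3326, 3486, 3305 and 3846 normalized counts in Sham-Veh and 4818, 4206, 3979 and 4036 in TAC-Veh. All TAC-Veh mice were above all Sham-Veh mice, a log2 fold change of 0.29 (SE 0.0832, limma adjusted p 0.0106). In Sham-THZ1 the gene was at 3417, 3377, 3268 and 3895, and in TAC-THZ1 at 3776, 4053, 3436 and 4330, a range that overlapped all other groups.

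Dsp encodes desmoplakin, which links the plaque to the intermediate filament desmin (chromosome 13, 38243197 to 38290446, plus strand). Its levels were 25335, 27450, 25563 and 23923 normalized counts in the Sham-Veh mice and 22356, 22604, 24299 and 24174 in Sham-THZ1, beside 20444, 23487, 20115 and 25429 after TAC with vehicle and 20034, 22632, 18062 and 22023 in TAC-THZ1. The groups overlapped in all 4 comparisons, and the TAC effect was not called (log2 fold change -0.20, 95% interval -0.39 to -0.01, limma adjusted p 0.0798). Jup encodes plakoglobin, a catenin shared by desmosome and adherens junction (chromosome 11, 100230272 to 100259077, minus strand). It stood at 5175, 5202, 4850 and 5806 normalized counts in Sham-Veh and 5878, 5202, 5623 and 6029 in Sham-THZ1, beside 4109, 4623, 4005 and 5653 after TAC with vehicle and 3403, 4412, 3903 and 4354 in TAC-THZ1. TAC-Veh overlapped Sham-Veh through replicate 4 alone, and the difference was not called (log2 fold change -0.20, 95% interval -0.42 to 0.02, limma adjusted p 0.121). Without TAC-Veh replicate 4 both were called, with log2 fold changes of -0.26 for Dsp (limma adjusted p 0.0205) and -0.31 for Jup (limma adjusted p 0.0109), while over all settings the adjusted p ran from 0.0205 to 0.71 for Dsp and from 0.0109 to 0.375 for Jup.

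The desmosomal cadherins therefore changed relative to the plaque. For every 100 counts of Dsp per kilobase there were 13.3 ± 1.54 counts of Dsg2 per kilobase in Sham-Veh and 13.9 ± 0.895 in Sham-THZ1, beside 6.25 ± 1.45 after TAC with vehicle and 9.55 ± 0.993 in TAC-THZ1 (SD, n = 4). The same ratio for Dsc2 came to 10.3 ± 0.868, 10.2 ± 0.631, 6.11 ± 0.825 and 8.85 ± 0.529. In all 4 TAC-Veh mice both ratios lay below those of every other mouse. Against the 12 cardiomyocyte markers, the mean log2 level of the 5 desmosomal genes stood at -4.86 ± 0.0412 in Sham-Veh and -4.90 ± 0.0433 in Sham-THZ1, beside -4.81 ± 0.187 after TAC with vehicle and -5.15 ± 0.0603 in TAC-THZ1. That of Dsg2 and Dsc2 alone came to -6.02 ± 0.113, -6.11 ± 0.0817, -6.62 ± 0.063 and -6.59 ± 0.0723. Relative to these markers the 2 cadherins were thus lower in all TAC mice than in all sham mice, and TAC-THZ1 (-6.68 to -6.50) overlapped TAC-Veh (-6.69 to -6.55). These differences are descriptions without a test, and those that set Dsg2 and Dsc2 apart from the plaque were formed after the values had been seen.

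**Figure D3:**
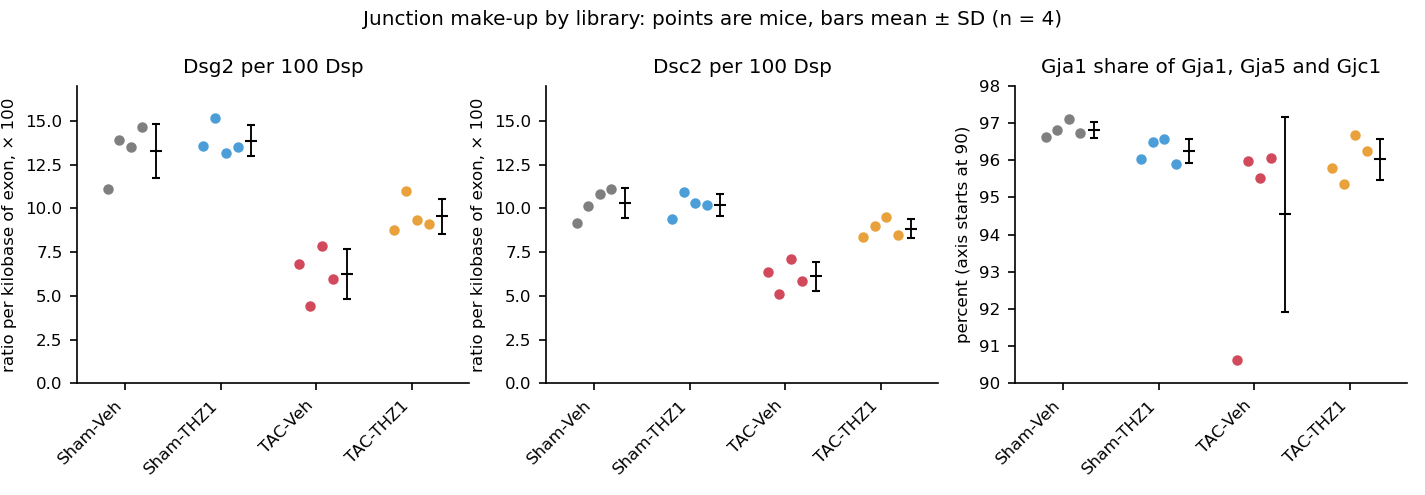
Left and centre, Dsg2 and Dsc2 per 100 Dsp, each per kilobase of exon; right, the share of Gja1 in the summed level of Gja1, Gja5 and Gjc1 per kilobase in percent, on an axis that starts at 90. Points are mice and bars the mean ± SD of 4; TAC-Veh is lowest for both cadherins (6.25 and 6.11), and the low share of 90.6% belongs to TAC-Veh replicate 1.

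Both adherens junction genes were lower after TAC. Cdh2 encodes N-cadherin (chromosome 18, 16747386 to 16967755, minus strand) and measured 5918, 6991, 6519 and 6869 normalized counts in Sham-Veh against 4356, 4360, 4432 and 5454 in TAC-Veh. In Sham-THZ1 it was at 6207, 6007, 6519 and 5837, and in TAC-THZ1 at 5105, 5578, 4961 and 4977. TAC-Veh and TAC-THZ1 mice were all below the sham mice and overlapped each other through TAC-Veh replicate 4. The TAC effect on Cdh2 was a log2 fold change of -0.50 (SE 0.0773, limma adjusted p 8.29e-05). Ctnna3 encodes αT-catenin, an α-catenin found mainly in heart and testis that also binds plakophilin 2 (chromosome 10, 62892846 to 64466415, plus strand). It measured 383, 434, 375 and 407 normalized counts in Sham-Veh and 401, 404, 399 and 461 in Sham-THZ1, beside 280, 229, 299 and 310 after TAC with vehicle and 322, 346, 322 and 320 in TAC-THZ1. The order of the groups was that of the desmosomal cadherins, with TAC-THZ1 between TAC-Veh and sham and no overlap. Its TAC effect was a log2 fold change of -0.52 (SE 0.0899, limma adjusted p 2.25e-04).

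Ctnna1, the α-catenin used by most cell types, was set beside Ctnna3 per kilobase. The log2 ratio of Ctnna3 to Ctnna1 came to -5.96 ± 0.0553 in Sham-Veh and -5.92 ± 0.123 in Sham-THZ1, beside -6.11 ± 0.231 after TAC with vehicle and -5.79 ± 0.074 in TAC-THZ1 (SD, n = 4). No pair of groups passed the exact two-sided permutation test after adjustment over 12 ratio tests. TAC-THZ1 exceeded TAC-Veh by 0.31 (exact permutation p 0.0571, adjusted p 0.137), and TAC-Veh differed from Sham-Veh by -0.15 (exact permutation p 0.314, adjusted p 0.471). The latter difference was -0.06 without TAC-Veh replicate 2 and -0.23 without TAC-Veh replicate 3. Ctnna3 itself had -0.52 with TAC, so the mean log2 level of Ctnna1 was lower in TAC-Veh than in Sham-Veh too. The smallest p that 4 mice against 4 can give is 0.0286. A single comparison therefore could not pass the adjustment over 12 tests, however far apart its groups lay. Not passing does not show that the ratios were alike.

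The connexins did not move together. Gja1 (chromosome 10, 56097106 to 56110225, plus strand) measured 12215, 13336, 14603 and 12994 normalized counts in Sham-Veh, and 4576, 12602, 9117 and 11618 in TAC-Veh. TAC-Veh replicate 1 was the lowest of all 16 libraries, and replicate 2 lay within the Sham-Veh range. The log2 fold change was -0.58 (SE 0.215, limma adjusted p 0.0358), but this call did not hold widely. Without TAC-Veh replicate 1 the log2 fold change was -0.27 (limma adjusted p 0.0595), and the call was also lost without TAC-Veh replicate 3 (-0.60, adjusted p 0.0524), Sham-Veh replicate 2 (-0.58, 0.0678), replicate 3 (-0.54, 0.0854) or replicate 4 (-0.59, 0.0625). Over 29 settings the adjusted p ran from 0.0101 to 0.13, and the count models edgeR and DESeq2 did not call it (adjusted p 0.13 and 0.0899). On the 14 libraries of these count models limma did not call it either (-0.60, adjusted p 0.0626). Under THZ1, Gja1 was at 10043, 11358, 11923 and 10654 normalized counts in sham and 9208, 8969, 11570 and 10321 after TAC.

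Gjc1 encodes connexin 45, a connexin of the conduction system and of early heart muscle (chromosome 11, 102660893 to 102681014, minus strand). It stood at 562, 596, 598 and 576 normalized counts in Sham-Veh and 530, 560, 537 and 613 in Sham-THZ1, beside 687, 736, 592 and 644 after TAC with vehicle and 567, 621, 559 and 582 in TAC-THZ1. TAC-Veh replicate 3 lay within the Sham-Veh range and the other 3 TAC-Veh mice above it. The rise with TAC was small and near the threshold (log2 fold change 0.19, SE 0.0713, limma adjusted p 0.0436). Leaving out any Sham-Veh mouse, TAC-Veh replicate 1 or 2, Sham-THZ1 replicate 2 or 3, or TAC-THZ1 replicate 1 or 4 moved the adjusted p above 0.05, with log2 fold changes from 0.13 to 0.20 in these fits, and over all settings the adjusted p ran from 0.007 to 0.145.

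Gja5 encodes connexin 40, a connexin of atrial muscle, the conduction system and arterial endothelium, and was the lowest member per kilobase. It measured 144, 128, 118 and 149 normalized counts in Sham-Veh and 156, 118, 166 and 136 in Sham-THZ1, beside 84.7, 130.1, 110 and 142 after TAC with vehicle and 92.8, 89.1, 92.8 and 75.2 in TAC-THZ1. The vehicle groups overlapped (log2 fold change -0.23, 95% interval -0.55 to 0.10, limma adjusted p 0.241; -0.08 without TAC-Veh replicate 1), whereas all TAC-THZ1 mice were below all sham mice of either treatment. Since Gja5 is read here in a tissue piece with vessels, it was set against the endothelial gene Pecam1. The log2 ratio of Gja5 to Pecam1 per kilobase came to -5.32 ± 0.13 in Sham-Veh and -5.36 ± 0.258 in Sham-THZ1, beside -5.78 ± 0.57 after TAC with vehicle and -5.77 ± 0.135 in TAC-THZ1 (SD, n = 4). TAC-Veh minus Sham-Veh was -0.46 (exact permutation p 0.0571) and TAC-THZ1 minus Sham-THZ1 was -0.41 (exact permutation p 0.0571), neither of which passed the adjustment (adjusted p 0.137 for each). Without TAC-Veh replicate 1 the first of these was -0.18. TAC-THZ1 and TAC-Veh differed in this ratio by 0.009, and without TAC-Veh replicate 1 the difference was -0.27. Gja5 itself had a log2 fold change of -0.39 in that comparison, so the ratio moved with Pecam1 as well. The mean log2 level of Pecam1 was higher in TAC-Veh than in Sham-Veh and lower in TAC-THZ1 than in TAC-Veh. The ratio is therefore not a level of Gja5 corrected for the amount of endothelium.

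Gja1 made up nearly all of the signal of the 3 connexins per kilobase. Its share came to 96.8% ± 0.209 in Sham-Veh and 96.3% ± 0.329 in Sham-THZ1, beside 94.5% ± 2.62 after TAC with vehicle and 96.0% ± 0.559 in TAC-THZ1 (SD, n = 4). In each of the 4 TAC-Veh mice and each of the 4 Sham-THZ1 mice the share was below the lowest Sham-Veh value of 96.6%, with an exact permutation p of 0.0286 for each of these comparisons, the smallest possible, and an adjusted p of 0.137. The TAC difference of -2.27 percentage points came down to -0.966 without TAC-Veh replicate 1, whose share was 90.6%.

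The promoters of Gja1 and Gja5 are shown because regulators that are known to act on connexin genes, described further on, also changed. RefSeq sequences on GRCm38.p6, 250 bases before to 50 after the start site, were held for 5 of the 10 members (Gja1, Gja5, Ctnna3, Dsp and Jup). The Gja1 stretch (chr10:56377050-56377349, plus strand) starts transcription at the same base as the gene of the annotation used for counting, and the Gja5 stretch (chr3:97032152-97032451, plus strand) has its start site 127709 bases inside the annotated gene, which spans chromosome 3, 96708616 to 96881339, on NCBIM37. Both were found once, without a mismatch, on the NCBIM37 chromosome. Capitals mark matches, on either strand, to 6 motifs that were searched. The letters of the Tbx5 family motif were AGGTGT, those of the Nkx2-5 motif were AAGTG and those of the GATA motif were AGATAA. For the AP-1 motif they were TGANTCA, for the GC box they were GGGCGG and for the TATA box they were TATAAA.
Gja1: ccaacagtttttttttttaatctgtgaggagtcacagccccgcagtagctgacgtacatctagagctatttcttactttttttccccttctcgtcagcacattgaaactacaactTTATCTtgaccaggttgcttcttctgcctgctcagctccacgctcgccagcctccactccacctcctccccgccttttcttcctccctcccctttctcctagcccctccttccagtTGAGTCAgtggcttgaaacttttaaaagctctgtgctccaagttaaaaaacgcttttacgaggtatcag
Gja5: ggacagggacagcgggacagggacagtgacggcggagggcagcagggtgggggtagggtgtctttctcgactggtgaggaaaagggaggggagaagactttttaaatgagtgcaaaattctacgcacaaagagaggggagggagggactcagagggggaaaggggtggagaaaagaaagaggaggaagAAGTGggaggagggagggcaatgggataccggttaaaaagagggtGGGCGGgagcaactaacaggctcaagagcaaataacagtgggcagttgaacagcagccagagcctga
The Gja1 stretch held 1 GATA match, whose first base lies 135 bases before the start site, and 1 AP-1 match 19 bases before it. The Gja5 stretch held 1 Nkx2-5 match 62 bases and 1 GC box 17 bases before its start site. Of all 32851 promoter stretches in the table, 11.2% held the GATA letters, 7.81% the AP-1 letters, 46.4% the Nkx2-5 letters and 35.7% the GC box. The Tbx5 family letters, held by 13.7% of all stretches, were found in neither connexin stretch, once in that of Jup, at 2 places in that of Dsp and once in 1 of the Ctnna3 stretches. The TATA letters, held by 13.6% of all stretches, were in neither connexin stretch. A match is a description of letters and not a bound site.

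The next comparison asks what THZ1 changed in constricted hearts. TAC-THZ1 and TAC-Veh differed for 2 of the 10 members, both higher with THZ1 (Dsg2 and Dsc2), beside 15.1% of all genes. No member was called lower, beside 14.2% of all genes, although 2 were lower at an unadjusted p under 0.05 (Gja5 and Gjc1), 1 was called lower by edgeR (Gjc1) and 2 by DESeq2 (Gjc1 and Jup). On the 14 libraries of these count models limma called Gjc1 lower as well (-0.24, adjusted p 0.0282). The members' median log2 fold change was 0.02, beside 0.01 over all genes, and its sign was not stable. It was -0.11 without TAC-Veh replicate 1, -0.01 without TAC-Veh replicate 3, -0.02 without TAC-THZ1 replicate 2 and 0.09 without TAC-Veh replicate 4, and on 14 libraries it was -0.02 in limma, -0.08 in edgeR and -0.07 in DESeq2. It was also below 0 under quantile normalization (-0.03) and with array weights (-0.02). Dsg2 was higher by a log2 fold change of 0.53 (SE 0.133, limma adjusted p 0.00793), and when the sham groups were left out of the fit limma gave an adjusted p of 0.0591 within a range of 0.00218 to 0.0591 over all settings. Dsc2 was higher by 0.43 on the log2 scale (SE 0.0866, limma adjusted p 0.00194). The values of the 2 groups did not overlap for 3 members, all higher with THZ1 (Dsg2, Dsc2 and Ctnna3), beside 9.53% of all genes. This comparison shares the TAC-Veh mice with the TAC comparison. Its main fit also pools the variance of each gene over groups of unequal spread. The median SD of a gene on the log2 scale was 0.218 for TAC-Veh and 0.141 for TAC-THZ1. Both sham groups were tighter, at 0.098 (vehicle) and 0.0916 (drug). Fitting TAC-THZ1 and TAC-Veh alone called 583 of all genes higher and 816 lower, against 2019 and 1899, and Dsc2 as the 1 member. The part of the unequal spread in these calls was not tested.

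The other members were near or short of the threshold for THZ1 in constricted hearts. Ctnna3 had a log2 fold change of 0.24 (limma adjusted p 0.0567), and was called without TAC-Veh replicate 3 (0.27, adjusted p 0.0384) or replicate 4 (0.29, 0.0262), over a range of 0.0262 to 0.20. Cdh2 had 0.15 (limma adjusted p 0.146), and 0.23 without TAC-Veh replicate 4 (adjusted p 0.0146, range 0.0146 to 0.356). For Gja5 the log2 fold change was -0.39 (limma adjusted p 0.0637), and -0.53 without TAC-Veh replicate 1 (adjusted p 0.00791, range 0.00791 to 0.172). Gjc1 had -0.19 (limma adjusted p 0.0575), and -0.24 without TAC-Veh replicate 3 (adjusted p 0.0141, range 0.0141 to 0.215). Gja1 had a log2 fold change of 0.17 (95% interval -0.28 to 0.63, limma adjusted p 0.582), which turned to -0.14 without TAC-Veh replicate 1 (limma adjusted p 0.342), so the data do not fix a direction for it. Dsp (-0.11), Pkp2 (-0.13) and Jup (-0.19) had intervals from -0.30 to 0.08, -0.30 to 0.05 and -0.41 to 0.03. Leaving out TAC-Veh replicate 3 or replicate 4 raised the number of members called from 2 to 4. Calls over all genes rose as well, from 2019 higher and 1899 lower to 2352 and 2224 without replicate 3. Without replicate 4 they were 2206 and 1954.

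**Figure D4:**
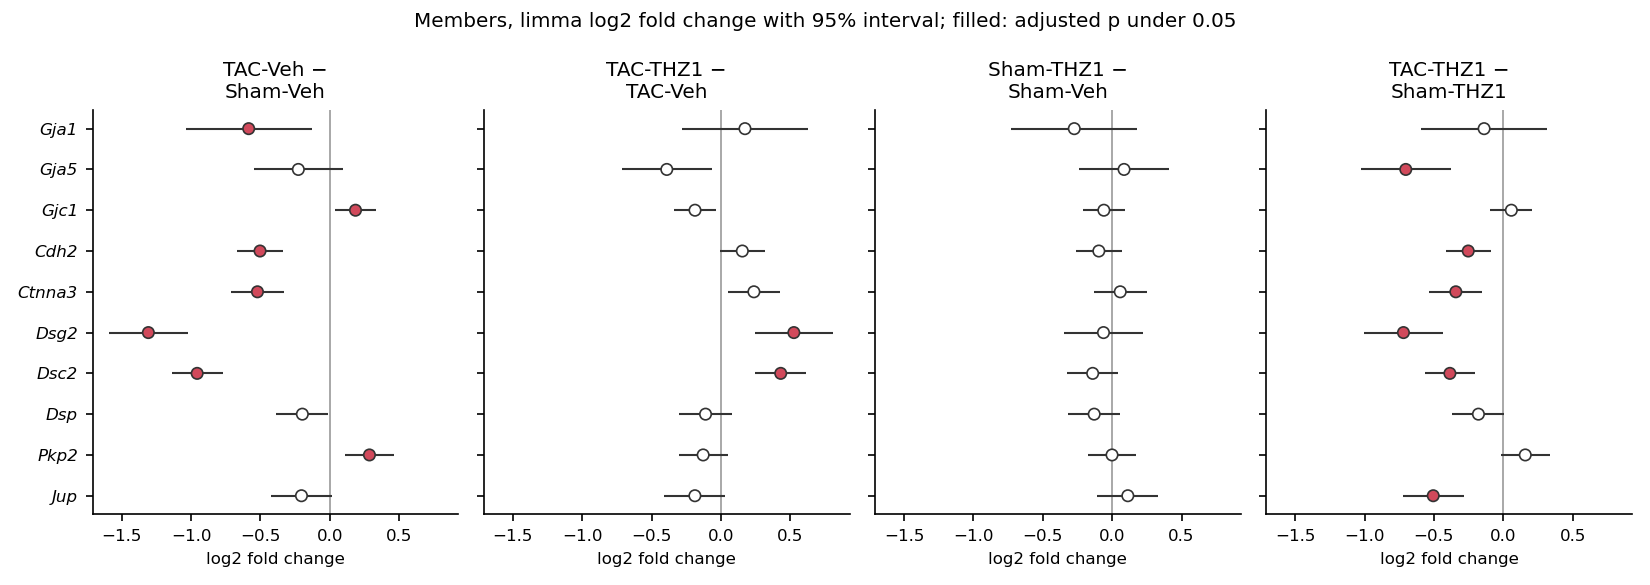
Log2 fold changes of the 10 members in 4 comparisons (limma, 16 libraries), with 95% intervals as lines; filled points have an adjusted p under 0.05. Filled points lie at -1.31 (Dsg2) and -0.96 (Dsc2) for TAC and at 0.53 and 0.43 for THZ1 after TAC, and no point is filled for THZ1 in sham.

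In sham hearts, limma called none of the 10 members with THZ1, none reached an unadjusted p under 0.05, and edgeR and DESeq2 called none. Of all genes, 0.0225% were called higher and 0.045% lower. The widest interval was that of Gja1 (-0.73 to 0.18 on the log2 scale, log2 fold change -0.27, limma adjusted p 0.881) and the narrowest that of Gjc1 (-0.21 to 0.09). Gja1 was the 1 member whose sham groups did not overlap, with all Sham-THZ1 mice (10043 to 11923) below all Sham-Veh mice (12215 to 14603), a pattern that 5.05% of all genes had in this direction. A fit of the sham groups alone, where the spread of the TAC mice does not enter, called Gja1 lower with an adjusted p of 0.0216 by limma, against 0.0216 to 1.00 over all settings. That fit called 287 of all genes higher and 178 lower, against 3 and 6 in the main fit. With array weights 254 were called higher and 259 lower.

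TAC-THZ1 and Sham-THZ1 compare constricted with sham hearts when both received the drug. In this comparison 6 members were called lower, beside 12.8% of all genes, and the same 6 did not overlap between the groups, beside 17.7%. None was called higher by limma at an adjusted or unadjusted p under 0.05, nor by edgeR or DESeq2, beside 11.4% of all genes called higher. With array weights limma called Pkp2 higher (0.21, adjusted p 0.0278 within a range of 0.0278 to 0.427 over all settings). Dsg2 (log2 fold change -0.72, limma adjusted p 0.00212) and Gja5 (-0.70, 0.0048) fell most, followed by Jup (-0.51, 0.00368), Dsc2 (-0.39, 0.00581), Ctnna3 (-0.34, 0.0131) and Cdh2 (-0.25, 0.0266). The call for Cdh2 was lost without Sham-THZ1 replicate 1 (-0.25, limma adjusted p 0.0608) or 3 (-0.22, 0.0787), without TAC-THZ1 replicate 1 (-0.25, 0.0619), 3 (-0.24, 0.0639) or 4 (-0.24, 0.0655), and in edgeR (0.0818), which was the highest value over all settings, with 0.00424 the lowest. On the 14 libraries of the edgeR fit limma lost it as well (-0.24, adjusted p 0.0655). Beside their values for TAC with vehicle, Dsg2 had -0.72 against -1.31, Dsc2 -0.39 against -0.96, Gja5 -0.70 against -0.23 (-0.08 without TAC-Veh replicate 1) and Jup -0.51 against -0.20 (-0.31 without TAC-Veh replicate 4).

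Whether THZ1 acted differently after TAC than in sham was tested with the interaction, which is the effect of THZ1 after TAC minus that in sham. Dsc2 was the 1 member called, with an interaction of 0.57 on the log2 scale (SE 0.122, limma adjusted p 0.0109), beside 4.4% of all genes called on the higher side. None was called on the lower side by limma, edgeR or DESeq2, beside 5.62% of all genes, while 1 member (Gja5) was lower at an unadjusted p under 0.05. The call for Dsc2 held under each of the 28 other settings. Dsg2 had an interaction of similar size, 0.59 (SE 0.189, limma adjusted p 0.0572, range 0.0181 to 0.118 over all settings). On 14 libraries it passed the threshold in edgeR (adjusted p 0.0415) and DESeq2 (0.0181), and also in limma (0.65, adjusted p 0.0453). It also passed without Sham-Veh replicate 1 (0.68, 0.0387), TAC-Veh replicate 3 (0.66, 0.0264) or 4 (0.64, 0.0443), or TAC-THZ1 replicate 3 (0.66, 0.04). Gja5 (-0.48, limma adjusted p 0.165) was called without TAC-Veh replicate 1 (-0.62, 0.0387, range 0.0387 to 0.28) and Cdh2 (0.25, limma adjusted p 0.152) without TAC-Veh replicate 4 (0.33, 0.0271, range 0.0271 to 0.269).

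Under stricter thresholds fewer members were called. With a log2 fold change of at least 1 in size as well, TAC left Dsg2 as the 1 lower member and none higher, beside 3.37% and 4.64% of all genes. At an adjusted p under 0.01, TAC left 4 lower members (Dsg2, Dsc2, Cdh2 and Ctnna3) and none higher, beside 16.1% and 14.3%. For THZ1 after TAC no member reached 0.89 in size, which 1.85% of all genes did on the higher side and 3.62% on the lower, while Dsg2 and Dsc2 were the 2 members higher and none was lower at an adjusted p under 0.01 (7.67% and 7.76% of all genes). In sham none passed at 0.01 (0.015% higher and 0.03% lower among all genes), and no member lay wholly higher with THZ1, beside 6.29% of all genes. For TAC-THZ1 against Sham-THZ1 none reached 1 in size (1.16% of all genes higher, 0.863% lower), and 4 members (Dsg2, Dsc2, Gja5 and Jup) were lower and none higher at 0.01, beside 5.36% and 4.04%; none lay wholly higher, beside 15.7%. No interaction of a member passed at 0.01 (0.488% of all genes higher, 1.49% lower), and after TAC no member lay wholly lower with THZ1, beside 10.5%.

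Other genes of the intercalated disc were taken from a list of 37, of which 36 were in the table and 35 were tested. With TAC 10 were called higher and 11 lower, beside 21.4% and 23.6% of all genes tested. With THZ1 after TAC 4 were higher and 10 lower, beside 15.1% and 14.2%. The median log2 fold change was -0.05 for TAC and -0.08 for THZ1 after TAC, beside -0.003 and 0.01 over all genes. Nrap was listed at 0 in every library, and whether its RNA was absent or its reads went uncounted was not tested. Those with the smallest adjusted p for TAC included actin-binding, filament and channel genes. Xirp2, an actin-binding repeat protein of the disc, rose from 14055 ± 1876 normalized counts (Sham-Veh) to 67925 ± 16780 (TAC-Veh) and stood at 27523 ± 6076 in TAC-THZ1 (SD, n = 4), with log2 fold changes of 2.25 for TAC and -1.30 for THZ1 after TAC (limma adjusted p 6.45e-08 and 5.48e-05). Des, which encodes the desmin filaments that desmosomes anchor, had 0.89 and -0.43, and Tmem43, a membrane protein gene mutated in arrhythmogenic cardiomyopathy, 0.72 and -0.41. On the lower side were Kcnj2, the inward rectifier potassium channel, with -1.25 for TAC and 0.45 for THZ1 after TAC, and Ank2, ankyrin B, with -0.63 and 0.21. Des was thus higher where the cadherins were lower.

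Called for the interaction in this list were 1 gene on the higher side and 6 on the lower, beside 4.4% and 5.62% of all genes. The largest interactions of named genes were -1.19 for Xirp2 (limma adjusted p 0.00468) and -0.93 for its paralog Xirp1 (0.00816), which had 0.91 for TAC and -0.71 for THZ1 after TAC. Flnc, filamin C, had 0.68 and -0.65 (interaction -0.73, limma adjusted p 0.0188). The THZ1 value of Kcnj2 after TAC passed the threshold narrowly (limma adjusted p 0.0332) and was lost without TAC-Veh replicate 1 (0.26, adjusted p 0.0735) or 2 (0.45, 0.0705) or without TAC-THZ1 replicate 2 (0.42, 0.0824), 3 (0.40, 0.0819) or 4 (0.45, 0.0599). That of Ank2 (limma adjusted p 0.0332) was lost without TAC-Veh replicate 1 or 2 or TAC-THZ1 replicate 2 or 4 (0.16 to 0.20, adjusted p 0.0705 to 0.104).

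Among 20 other connexins and pannexins, 6 were tested. Panx1, which forms single-membrane channels that release ATP, was the 1 gene called higher with TAC, beside 21.4% of all genes. Gjc3 and Gja3 were called lower, beside 23.6% of all genes. Panx1 rose from 39.2 ± 8.50 normalized counts (Sham-Veh) to 281 ± 134 (TAC-Veh) and was at 76.6 ± 16.9 in TAC-THZ1 (SD, n = 4). The log2 fold changes were 2.70 for TAC and -1.76 for THZ1 after TAC, with an interaction of -1.71 (limma adjusted p 2.77e-06, 4.77e-04 and 0.0167). Gja3, a connexin best known from the lens, went from 189 ± 36.6 to 118 ± 22.98 with TAC (-0.67) and 169 ± 16.5 with THZ1 (0.53). Gjc3 was near the floor, at 17.8 ± 3.36 normalized counts in Sham-Veh and 1.31 ± 1.17 in TAC-Veh. The arterial connexin Gja4, named here after its values were seen, was at 223 ± 15.7 in Sham-Veh and 257 ± 65.7 in TAC-Veh.

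Of 20 desmosomal and classical cadherin paralogs, 7 were tested. With TAC limma called 3 lower and none higher, beside 23.6% and 21.4% of all genes. By limma 2 were higher at an unadjusted p under 0.05, while edgeR called 2 higher and DESeq2 3. Ppl, periplakin, a relative of desmoplakin, fell from 384 ± 37.5 normalized counts (Sham-Veh) to 106 ± 35.6 (TAC-Veh) and was at 307 ± 96.8 in TAC-THZ1 (SD, n = 4), with log2 fold changes of -1.91 and 1.54 and an interaction of 1.63 (limma adjusted p 1.19e-05, 3.10e-04 and 0.00865). Cdh4 (-0.64 for TAC, limma adjusted p 0.0365) and the endothelial cadherin Cdh5 (-0.32, 0.0399) were close to the threshold. The call for Cdh4 was lost without any single Sham-Veh mouse or without TAC-Veh replicate 1 or 2, and the log2 fold change was -0.37 without TAC-Veh replicate 1 (limma adjusted p 0.123, range 0.00705 to 0.123). That for Cdh5 was lost without Sham-Veh replicate 2 or 4 or TAC-Veh replicate 1, 2 or 3 (-0.32 to -0.23) and in edgeR and DESeq2 (adjusted p 0.20 and 0.186, range 6.07e-04 to 0.20). On the 14 libraries of these count models limma lost it as well (-0.23, adjusted p 0.144).

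**Figure D5:**
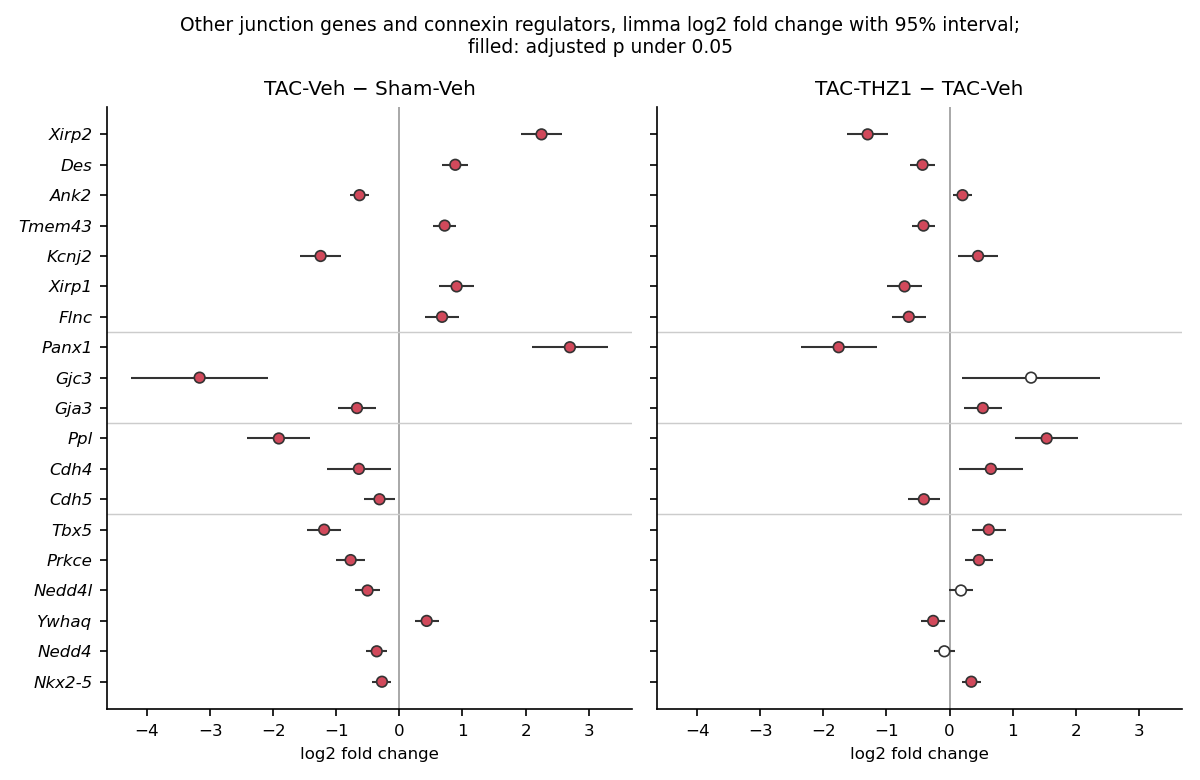
Log2 fold changes with 95% intervals (limma, 16 libraries) of other disc genes, other connexins and pannexins, cadherin and plakin paralogs, and connexin regulators, from top to bottom and parted by grey lines, for TAC (left) and for THZ1 after TAC (right); filled points have an adjusted p under 0.05. Xirp2 and Panx1 are at 2.25 and 2.70 with TAC, Ppl is at -1.91 with TAC and 1.54 with THZ1, and the panels share the TAC-Veh mice.

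All 24 genes of a list of connexin regulators were tested. With TAC 4 were called higher and 14 lower, beside 21.4% and 23.6% of all genes, and with THZ1 after TAC 5 were higher and 3 lower, beside 15.1% and 14.2%. The median log2 fold change was -0.22 for TAC and 0.11 for THZ1 after TAC, beside -0.003 and 0.01 over all genes. Tbx5, the T-box factor that is known to activate Gja5, fell from 753 ± 80.8 normalized counts (Sham-Veh) to 332 ± 66.7 (TAC-Veh) and was at 508 ± 70.5 in TAC-THZ1 (SD, n = 4), with log2 fold changes of -1.19 and 0.62 (limma adjusted p 2.66e-06 and 0.00197). Nkx2-5, a homeobox factor of heart muscle, was at 1036 ± 80.8, 855 ± 55.9 and 1088 ± 92.8 in the same groups, a change of -0.28 with TAC and 0.35 with THZ1 (limma adjusted p 0.00505 and 0.00234). Gja5 itself was at 117 ± 25.2 normalized counts in TAC-Veh and 87.5 ± 8.36 in TAC-THZ1. This difference was not called (limma adjusted p 0.0637, range 0.00791 to 0.172 over all settings), and a link to Tbx5 was not tested. Prkce, a protein kinase C that phosphorylates connexin 43, fell with TAC by 0.77 on the log2 scale and was 0.47 higher with THZ1. The ubiquitin ligase genes Nedd4l (-0.50) and Nedd4 (-0.36) were lower with TAC, and Ywhaq, a 14-3-3 protein gene, was higher (0.43).

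Marker lists of cell types moved with the groups, and their part in the results on the junction genes was not tested. For comparison, 21.4% of all genes were called higher and 23.6% lower with TAC. With THZ1 after TAC these shares were 15.1% and 14.2%. Of 12 cardiomyocyte markers, 6 were lower with TAC and none higher (none at an unadjusted p under 0.05, nor by edgeR or DESeq2), and 8 were higher with THZ1 after TAC. Their summed level was 1947110 to 2097640 normalized counts in Sham-Veh, 2022450 to 2078800 in Sham-THZ1, 1068630 to 1517070 in TAC-Veh and 1674030 to 2071080 in TAC-THZ1. Of 9 fibroblast markers, 6 were higher with TAC and 6 lower with THZ1 after TAC, with sums of 29741 to 33013 in Sham-Veh, 55493 to 95875 in TAC-Veh and 30797 to 43555 in TAC-THZ1. Of the 8 leukocyte markers in the table, 5 were higher with TAC (4626 to 5598 in Sham-Veh and 7411 to 9689 in TAC-Veh). With THZ1 after TAC limma called none of them, and 1 was lower at an unadjusted p under 0.05. Their sums were 5102 to 9941 in TAC-THZ1. By limma 2 of the 4 epicardial markers tested were higher with TAC, whereas edgeR called 1 higher and DESeq2 0. The 8 epicardial markers summed to only 135 to 226 normalized counts in Sham-Veh and 146 to 303 in TAC-Veh, which overlap. Of 9 endothelial markers 2 were higher and 2 lower with TAC, and 1 was higher and 3 lower with THZ1 after TAC, with sums of 25741 to 28089 in Sham-Veh, 23295 to 29091 in TAC-Veh and 22223 to 24269 in TAC-THZ1. By edgeR and by DESeq2, 2 were higher and none lower with TAC, and 1 was higher and 2 lower with THZ1 after TAC. Of 9 arterial endothelial markers 2 were higher with TAC and 2 lower with THZ1, and of 9 smooth muscle and pericyte markers 1 was higher and 4 lower with TAC. Of 7 conduction system markers tested, which include the regulators Tbx3 and Irx3, 6 were lower with TAC and 3 higher with THZ1, with sums of 1641 to 2084 in Sham-Veh, 1141 to 1515 in TAC-Veh and 1298 to 1684 in TAC-THZ1. The count models edgeR and DESeq2 each called 4 of them lower with TAC, and 2 and 3 higher with THZ1. Of 4 atrial markers tested, 2 were lower with TAC and 2 higher with THZ1. Among the markers of these lists in the table, Bmp10 alone was at 0 in every library of a group, namely in Sham-Veh, TAC-Veh and TAC-THZ1.

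Across the 16 libraries the members varied together to different degrees. Over 45 pairs of members, Pearson's r of log2 values ran from -0.69 to 0.98 with a median of 0.45. These are descriptions over 4 groups that share libraries and size factors. Dsg2 and Dsc2 were the closest pair (r = 0.98), and r was 0.87 once the group means had been taken off. By the same measure over all tested genes, the genes most like Dsg2 were Angpt1, Slc41a1 and Ppm1k (each r = 0.98), and those most like Dsc2 were Ppm1k and Dsg2 (each r = 0.98). Cdh2 was most like the calcium channel gene Cacna1c (0.97), Ctnna3 most like Ogdhl (0.97), Jup most like Ptrf (0.97) and Dsp most like Phf3 (0.94). Gja1 was most like Plxnd1 (0.92), Pkp2 most like Efha1 (0.91), Gja5 most like the endothelial gene Cd93 (0.89) and Gjc1 most like Ctdspl (0.89).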

How the data were processed

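RNA from ventricle pieces of 16 mice (4 per group) was sequenced by the authors as single-end reads from a strand-specific, poly(A)-selecting kit, aligned with TopHat2 2.1.1 to mm9 and assigned to GENCODE genes by htseq-count, set to reverse strand. The deposited signal is the gene count divided by the DESeq2 size factor of its library, from a run over all mouse samples. The 10 members and all gene lists were chosen with earlier results of these data known.

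All 22372 Ensembl identifiers were matched to symbols. Genes with at least 10 normalized counts in at least 4 libraries (13331) were tested with limma 3.58.1 (R 4.3.3). The model gave each group its mean over 16 libraries on the scale log2(normalized count + 1), with a trended prior and Benjamini-Hochberg adjustment per comparison. A call was an adjusted p under 0.05. Ratios were compared by exact two-sided permutation tests, adjusted over 12 tests. Dividing the values by their smallest step gave whole reads (all values within 0.01 of a whole number) in 14 libraries. In TAC-Veh replicate 3 and TAC-THZ1 replicate 4 the step is close to 1 and the recovery could not be checked, so edgeR 4.0.16 (quasi-likelihood) and DESeq2 1.42.0 were run on the other 14 only, as alternatives. The other alternatives were pseudocounts of 0.5 and 5, other filters, other scalings, array weights, robust moderation, a replicate block, fits of only the groups compared, stricter thresholds, and leaving out each library. limma on the same 14 libraries was added after the data had been seen. Scripts were tested on simulated data. Named genes outside the members were the 3 or 6 of each list with the smallest adjusted p for TAC among those called, plus any further gene called for the interaction; some genes that these rules name are not reported here. The authors state no batch or date in the labels, and nothing says how tissue pieces were divided beyond 1 library per mouse. The study's methods name alternative kits for its RNA libraries and do not say which libraries were made with which.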

Additional observations from a re-analysis of the deposited data

Results flagged for a closer look

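Among 52 groups of 4 mice examined for the members and the ratios, 5 held a mouse whose gap to its nearest neighbour was too wide for the range of its group by Dixon's test, and chance gives about 1 in 20 groups. Cdh2 was at 5454 normalized counts in TAC-Veh replicate 4, above the other mice of its group. Ctnna3 was at 461 in Sham-THZ1 replicate 4 and at 346 in TAC-THZ1 replicate 2, each the highest of its group. Dsc2 was at 1151 in Sham-THZ1 replicate 1, the lowest of its group. The share of Gja1 in the connexin signal was 90.6% in TAC-Veh replicate 1, the lowest of its group.

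For 10 genes reported here the effect of THZ1 after TAC differed from that in sham by limma's interaction test at an adjusted p under 0.05. Among the members this was Dsc2, with an interaction of 0.57 on the log2 scale. Of the other genes, Ppl (1.63), Ank2 (0.45) and Nkx2-5 (0.35) had positive interactions. Negative interactions were found for Panx1 (-1.71), Xirp2 (-1.19), Xirp1 (-0.93), Flnc (-0.73), Des (-0.52) and Tmem43 (-0.43). Of these, 3 lost the call when single libraries were left out. That was so for Nkx2-5 in 10 of 16 such fits and with the replicate block (limma adjusted p 0.0528), with adjusted p of 0.00632 to 0.0872 over all settings. Tmem43 lost it in 10 of 16 (limma adjusted p 0.00528 to 0.0779 over all settings). Des lost it in 6 of 16, without a filter on low values (limma adjusted p 0.0597) and under quantile normalization (-0.35, limma adjusted p 0.214), with a range of 0.000146 to 0.214 over all settings.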

How the results depend on the processing

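The calls for Dsg2, Dsc2, Cdh2, Ctnna3 and Pkp2 with TAC, for Dsc2 with THZ1 after TAC and for the interaction of Dsc2 held under every alternative run that kept the threshold of 0.05. The number of members called with TAC was 7, and was 1 with a log2 fold change of at least 1 in size and 4 at an adjusted p under 0.01, with a range of 5 to 9 when single libraries were left out. With THZ1 after TAC it was 2, and was 1 with only the groups compared in the fit, 4 in DESeq2 and 0 with a log2 fold change of at least 0.89 in size (2 to 4 with single libraries left out). Of all genes, the main fit called 2019 higher and 1899 lower in this comparison. With only the groups compared the calls were 583 and 816, and in DESeq2 2152 and 2168. limma on the same 14 libraries as DESeq2 called 2095 and 1997. In sham the number of members called was 0 (0 to 0 with single libraries left out). It was 1 with only the sham groups in the fit, which called 287 of all genes higher and 178 lower. For TAC-THZ1 against Sham-THZ1 it was 6, and 0 with a log2 fold change of at least 1 in size (5 to 6 with single libraries left out). For the interaction it was 1, then 2 with upper quartile scaling, array weights, edgeR, DESeq2 or limma on the same 14 libraries, and 0 at an adjusted p under 0.01 (1 to 3 with single libraries left out). Of all genes, the main fit called 587 interactions higher and 749 lower. Upper quartile scaling called 726 and 720, and DESeq2 1266 and 1269. limma on the same 14 libraries as DESeq2 called 1063 and 1065, and edgeR on them 1071 and 1095. The cause of these shifts was not tested, apart from the stricter thresholds.

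Directions turned for effects near 0. The THZ1 effect on Gja1 after TAC ran from -0.144 (without TAC-Veh replicate 1) to 0.343 with single libraries left out. The interaction of Dsp was -0.0881 under quantile normalization, -0.0607 in edgeR, -0.0626 in DESeq2 and -0.0624 in limma on the same 14 libraries, and -0.0304 to 0.0823 with single libraries left out. The sham effect of THZ1 on Pkp2 was 0.000443 with array weights and -0.0551 to 0.0465 with single libraries left out, and the interaction of Nedd4 was -0.100 to 0.0418. Among the ratios, with single libraries left out, the sham difference of Ctnna3 to Ctnna1 was -0.00629 to 0.0934, the THZ1 difference of Gja5 to Pecam1 after TAC was -0.272 to 0.150, and its sham difference was -0.148 to 0.0461.

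The groups share replicate numbers, but the deviations of 24 pairs of libraries with the same number correlated at -0.43 to 0.16, with 2 over 0.1, so the numbers were not taken to pair mice. With the replicate block, the numbers of members called were 7, 2, 0, 6 and 1 in the order above, and 2 libraries correlated best with another of their own number. The number of mice per group, 4, limits the precision of every value, and the standard error was not largest for the members with the lowest counts.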
